A study of Mus musculus with 3 samples.

Results

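Integrins, laminins and the hemidesmosome linkers dystonin (Dst) and plectin (Plec) were followed in maps of ubiquitinated histone H2A (H2AK119ub) from the tongue epithelium of newborn mice. The set held 37 genes, of which 25 encode integrin chains and 10 laminin chains, out of 21631 protein-coding genes (Y left out). A called region belonged to the set when the authors' annotation gave it the name of one of these genes, or when it overlapped the gene's bounds in the reference. By that rule 27 of 7838 regions in replicate 1 and 20 of 8093 regions in replicate 2 belonged to it. Chromatin immunoprecipitation and sequencing (ChIP-seq) was carried out on 2 replicates at postnatal day 0, which the submitters call biological, and 1 input library was not analysed here. The mice carried the label control with no allele, strain or treatment given. Cells were taken from tongues cut to leave out the posterior circumvallate papillae, the large taste papillae, and were sorted for the epithelial surface protein EpCAM. Whether animals were pooled is not given in the sources used here.

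H2AK119ub is the mark written by Polycomb repressive complex 1 (PRC1), which keeps genes of other lineages and stages silent. Integrins are receptors made of an alpha and a beta chain that tie cells to matrix, and laminins are trimers of an alpha, a beta and a gamma chain in the basement membrane. In basal cells of stratified epithelia, the integrin of the Itga6 and Itgb4 chains binds laminin-332 outside the cell and, inside it, Plec and the epithelial form of Dst tie it to keratin filaments. That assembly is the hemidesmosome. Leukocytes, platelets, muscle, nerve, vessels and fibroblasts use other chains. The 37 genes were therefore placed in 4 lists: 6 genes of the hemidesmosome and laminin-332, 11 other genes of basal epithelium, 9 genes of leukocytes and platelets, and 11 genes of mesenchyme, muscle, nerve and endothelium. A list of regions measures no RNA, so the labelled cell type could not be checked against expressed markers. Of 5 markers of basal epithelium (Krt5, Krt14, Trp63, Epcam and Cdh1), 0 had a promoter region in both replicates and Krt5 had one of 14.9 kb in replicate 2. Among markers of other cells, promoter regions in both replicates named Pdgfra and Twist1 of mesenchyme, Csf1r of leukocytes, Myod1 of muscle and Sox10 of glia.

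Promoter sequence was at hand for 24 of the 37 genes, as windows of 250 bases before to 50 bases after a RefSeq start site in GRCm38.p6, the assembly that mm10 names. Shown here are windows of Dst, Itga3, Lamb1, Itgb5 and Lamb3, which a region touched in at least 1 replicate, and that of Itgb1, which none touched. CG dinucleotides are in capitals, because Polycomb marks are known to favour CG-rich promoters. The Dst window (chr1:34011345-34011644, plus strand) lay under a region in both replicates. The windows of Itga3 (chr11:95076665-95076964, minus strand), Lamb1 (chr12:31265043-31265342, plus strand) and Itgb5 (chr16:33829415-33829714, plus strand) lay under a region in replicate 1 only. The Lamb3 window (chr1:193301993-193302292, plus strand) was reached in replicate 2 only, and the Itgb1 window (chr8:128685404-128685703, plus strand) in neither.
Dst: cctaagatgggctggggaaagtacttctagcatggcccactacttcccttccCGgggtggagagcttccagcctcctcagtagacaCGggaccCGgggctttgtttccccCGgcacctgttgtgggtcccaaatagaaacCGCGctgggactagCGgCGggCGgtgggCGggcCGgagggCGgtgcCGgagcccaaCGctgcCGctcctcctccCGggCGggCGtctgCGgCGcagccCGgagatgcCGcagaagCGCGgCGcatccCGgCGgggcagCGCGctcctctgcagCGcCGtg
Itga3: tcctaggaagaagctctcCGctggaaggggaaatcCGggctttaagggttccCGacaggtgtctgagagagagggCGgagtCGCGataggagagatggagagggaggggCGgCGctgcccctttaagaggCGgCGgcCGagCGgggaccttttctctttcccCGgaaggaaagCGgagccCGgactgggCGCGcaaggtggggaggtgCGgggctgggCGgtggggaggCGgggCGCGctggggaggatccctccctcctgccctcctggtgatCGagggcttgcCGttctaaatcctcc
Lamb1: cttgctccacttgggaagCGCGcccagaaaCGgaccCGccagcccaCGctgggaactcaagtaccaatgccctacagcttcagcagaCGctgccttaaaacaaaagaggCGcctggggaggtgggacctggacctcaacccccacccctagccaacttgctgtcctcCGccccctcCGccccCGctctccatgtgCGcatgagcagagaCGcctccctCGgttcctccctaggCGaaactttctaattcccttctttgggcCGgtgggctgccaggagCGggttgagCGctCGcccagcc
Itgb5: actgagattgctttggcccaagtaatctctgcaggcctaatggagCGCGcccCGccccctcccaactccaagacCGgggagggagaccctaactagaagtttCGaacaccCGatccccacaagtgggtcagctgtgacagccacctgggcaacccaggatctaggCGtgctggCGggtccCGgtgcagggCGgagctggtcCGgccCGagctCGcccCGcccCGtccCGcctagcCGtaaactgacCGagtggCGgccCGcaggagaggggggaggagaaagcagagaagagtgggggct
Lamb3: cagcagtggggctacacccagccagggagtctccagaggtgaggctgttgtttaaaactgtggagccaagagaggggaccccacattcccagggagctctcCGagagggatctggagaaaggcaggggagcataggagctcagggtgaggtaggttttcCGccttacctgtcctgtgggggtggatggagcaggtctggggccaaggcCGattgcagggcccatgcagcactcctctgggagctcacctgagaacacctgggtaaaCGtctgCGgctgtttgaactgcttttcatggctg
Itgb1: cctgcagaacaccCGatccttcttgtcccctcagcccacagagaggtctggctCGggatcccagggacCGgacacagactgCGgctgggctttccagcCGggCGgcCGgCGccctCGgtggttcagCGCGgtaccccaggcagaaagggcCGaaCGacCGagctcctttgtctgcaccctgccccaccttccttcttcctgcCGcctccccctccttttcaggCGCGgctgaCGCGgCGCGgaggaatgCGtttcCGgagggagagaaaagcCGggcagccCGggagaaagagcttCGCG

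Promoter regions named 3 of the 37 genes in both replicates, and all 3 stood in the lists of basal epithelium: Dst, Itga3, the laminin-binding alpha chain of keratinocytes, and Itga9, an alpha chain that binds tenascin. They made up 8.11% of the set (exact 95% binomial interval 1.70 to 21.9%), against 8.82% of all protein-coding genes named by promoter regions in both replicates. The share was close to that background and is not a result about the set. Promoter regions of a single replicate named 4 more genes, namely Itgb5 and Lamb1 in replicate 1 and Plec and Lamb3 in replicate 2. Each replicate alone named 5 of 37 (13.5%), against 12.8% of all protein-coding genes in replicate 1 and 12.4% in replicate 2. Together, 7 of 37 (18.9%) were named in either replicate, against 16.4% of all protein-coding genes. All 7 stood in the 2 lists of basal epithelium, so that 7 of 17 basal genes (41.2%, interval 18.4 to 67.1%) and 0 of 20 genes of other tissues (upper bound 16.8%) were named at a promoter in either replicate. In both replicates the counts were 3 of 17 (17.6%, interval 3.80 to 43.4%) and 0 of 20. The difference between the lists was not tested, since the lists were drawn up with earlier results of these data known. It also depends on where genes used in many tissues were placed. Lamb1, a chain of most basement membranes, and Itgb5 were counted as basal. In another list they would end the count of 0 in either replicate. The count of 0 in both replicates depends in the same way on the placement of Dst, Itga3 and Itga9. Intervals cover counting error only. Heights and reads were not part of the lists, which leaves the depth of each region unknown.

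**Figure D1:**
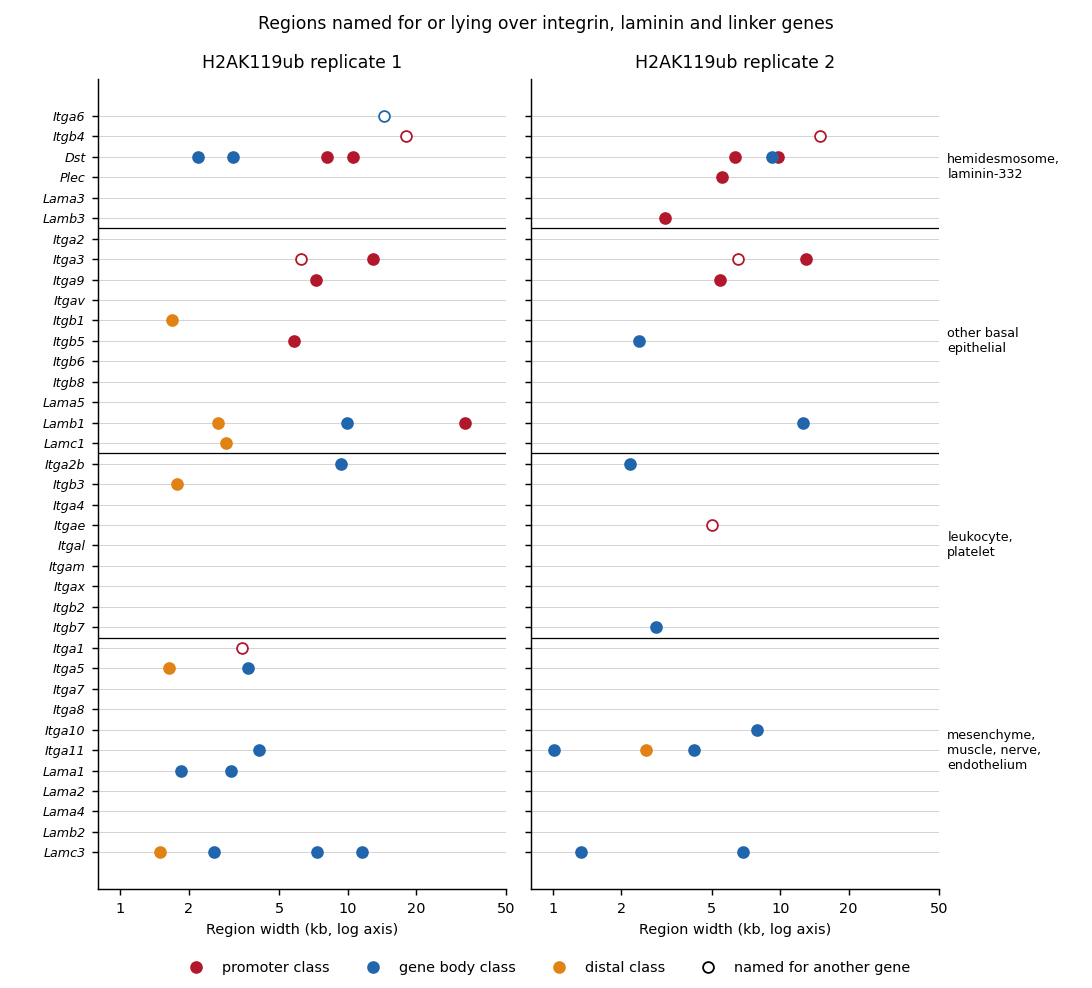
Width in kb (log axis) of each region named for or lying over one of the 37 genes, by replicate, with genes in the 4 lists separated by lines. Filled points are regions named for the gene and open points are regions over it that carry another gene's name; red promoter points that are filled occur in the 2 basal epithelial lists and in neither list of other tissues.

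Within the hemidesmosome list, Dst was the gene that promoter regions named in both replicates. Dst spans 401 kb on chromosome 1 (33907888 to 34308662) and has several start sites whose products serve epithelium, nerve and muscle. Which of these forms the marked start sites give is not stated in the files used here, so Dst is counted by its symbol. Its count among the marked hemidesmosome genes therefore does not show that the start site of the epithelial form was marked. Its first promoter region ran from 33902006 to 33912550 in replicate 1 (10.5 kb) and from 33902917 to 33912677 in replicate 2 (9.76 kb), with 9.63 kb in common. It lay across the end of the gene where the bounds of Dst and Bend6 overlap by 46 bp, and it carried both names. The second ran from 34004433 to 34012552 in replicate 1 (8.12 kb) and from 34006582 to 34012928 in replicate 2 (6.35 kb), with 5.97 kb in common, and covered the CG-rich start site printed above. A gene body region of 3.14 kb in replicate 1 lay wholly inside one of 9.23 kb in replicate 2, and a further gene body region of 2.20 kb was called in replicate 1 only. That last region lay 199 kb from either end of the gene, and the others lay on its lower-coordinate side. A further start site of Dst, at 34160260, lay 51.0 kb from the nearest region in replicate 1 and 87.4 kb in replicate 2, and its window held 6 CG against 31 at the marked site. Regions covered 4.52% and 5.08% of the gene's length in replicates 1 and 2.

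The integrin chains of the hemidesmosome were not named by any region. Itgb4 (chromosome 11, 115974725 to 116008412) lay under promoter regions in both replicates that were named for its neighbour Galk1, which encodes galactokinase and whose bounds overlap those of Itgb4 by 56 bp. That of replicate 1 ran from 115993610 to 116011721 (18.1 kb) and also carried the name of the noncoding gene B230344G16Rik, which lies inside Itgb4. That of replicate 2 ran from 116001809 to 116016763 (15.0 kb). They covered 43.9% of Itgb4 in replicate 1 and 19.6% in replicate 2, at the Galk1 side, and had 9.91 kb in common. Itga6 (chromosome 2, 71786886 to 71858427) had a gene body region of 14.5 kb in replicate 1, from 71803331 to 71817807, and none in replicate 2, whose nearest region lay 13.9 kb away. That region carried the name of the microRNA gene Mir5098, which the reference table places on chromosome 5. Start sites of Itgb4 and Itga6 were not used here, so how far these regions lay from them is not given.

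Plec and the laminin-332 chains were called in replicate 2 or not at all. Plec, on chromosome 15, had a promoter region from 76208173 to 76213742 (5.57 kb) inside the gene, shared with the name of Mir1942. In replicate 1 the nearest region to Plec lay 8.30 kb outside its bounds. Lamb3, the beta chain of laminin-332, carried one of 3.11 kb, from 193302241 to 193305346, that began within the printed window. In replicate 1 the nearest lay 18.6 kb away. Lama3, the alpha chain, had no region over it, and the nearest lay 24.0 kb away in replicate 1 and 30.0 kb away in replicate 2. Of the 6 genes, 5 (83.3%, interval 35.9 to 99.6%) lay under some region in either replicate, against 22.9% of all protein-coding genes, and 2 (33.3%, interval 4.33 to 77.7%), Itgb4 and Dst, in both, against 13.3%. The replicates thus differed at Itga6, Plec and Lamb3. Itga6 and Itgb4 were counted only through regions named for other genes. The 6 genes had a median length of 66.0 kb, against 17.3 kb for all protein-coding genes, and the part of length was not tested. Per length, regions covered 5.48% and 4.12% of them in replicates 1 and 2, against 2.88% and 2.55% of all protein-coding genes. Of the 47.4 kb covered in replicate 1, 14.8 kb lay in Itgb4 and 14.5 kb in Itga6, under those regions named for other genes. In replicate 2, Itgb4 gave 6.60 of 35.6 kb and Itga6 gave none.

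**Figure D2:**
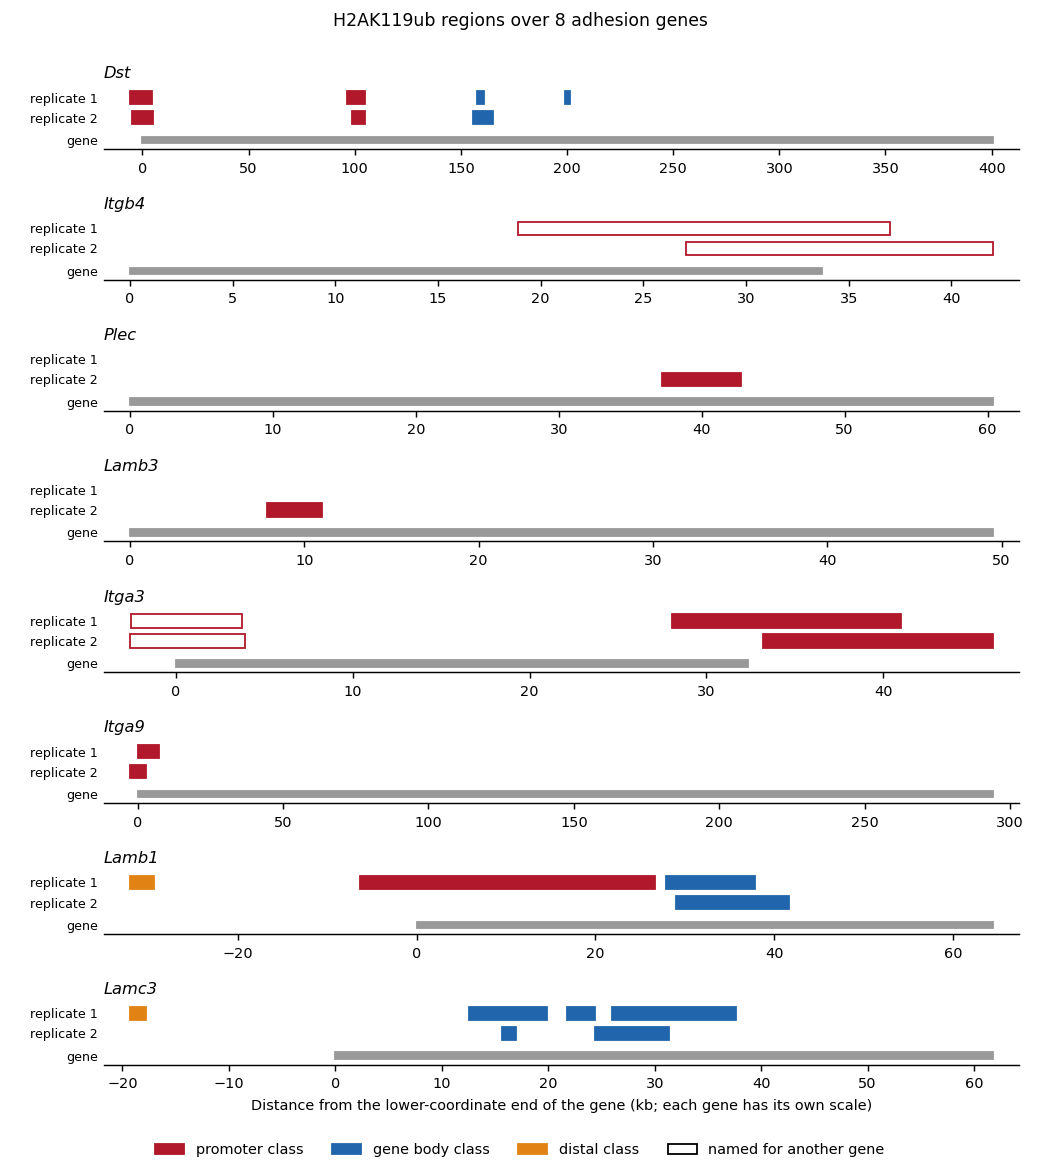
Regions of both replicates along 8 adhesion genes, in kb from the lower-coordinate end of each gene (grey bar, own scale per gene); filled boxes carry the gene's name and open boxes another gene's. Dst and Itga9 have red promoter boxes that overlap between replicates, by 2.70 kb at Itga9, the Itga3 box of replicate 2 lies just outside the gene, and the 33.0 kb box of Lamb1 occurs in replicate 1 only.

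Among the other genes of basal epithelium, Itga3 had the widest promoter regions called in both replicates. The gene lies on chromosome 11 from 95044475 to 95076844, with its start at the high-coordinate end. The region ran from 95072534 to 95085487 in replicate 1 (13.0 kb), across the start, and from 95077666 to 95090699 in replicate 2 (13.0 kb), where it stopped 0.952 kb upstream of the start at 95076714. The replicates shared 7.82 kb. These widths stood above 71.2% of the promoter regions of replicate 1 and 77.2% of those of replicate 2. At the other end of the gene, regions of 6.23 and 6.51 kb named for Pdk2, a pyruvate dehydrogenase kinase gene, covered up to 3.90 kb of Itga3 in both replicates, and the one of replicate 1 lay wholly inside that of replicate 2. For Itga9, on chromosome 9, a region of 7.29 kb in replicate 1 (118606725 to 118614017) and one of 5.42 kb in replicate 2 (118604004 to 118609423) met over the low-coordinate end of the gene at 118606709, with 2.70 kb in common. The reference window for Itga9 belongs to another start site, 97.7 and 102 kb from these regions, and is not printed. Regions covered 24.8% and 12.1% of Itga3 and 2.48% and 0.923% of Itga9 in replicates 1 and 2.

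Lamb1, the beta chain of the laminins that most basement membranes hold, had the widest region of the set in replicate 1. A promoter region of 33.0 kb ran from 31258845 to 31291820 on chromosome 12, across the start site, and was wider than 95.7% of the promoter regions of that list. It had no partner in replicate 2, where the nearest region began 28.8 kb from the start site. Beyond it a gene body region of 9.97 kb in replicate 1 (31293001 to 31302972) met one of 12.6 kb in replicate 2 (31294123 to 31306767) over 8.85 kb. Coverage of Lamb1 was 56.8% in replicate 1 and 19.6% in replicate 2. Itgb5, a beta chain that pairs with Itgav and binds vitronectin, was named by a 5.78 kb promoter region in replicate 1 and, in replicate 2, by a gene body region of 2.38 kb that lay 105 kb from the start. The regions of Itgb5 did not overlap.

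The remaining 7 genes of this list had no region over them. Itgb1, the beta chain that many integrins share, and Lamc1, the gamma chain of most laminins, were named by distal regions of 1.70 and 2.92 kb in replicate 1, 37.7 and 39.1 kb from the gene. Itgav, Itga2, Itgb6, Itgb8 and Lama5 were neither named nor overlapped. Itgav had regions at 2.86 kb in replicate 1 and 4.62 kb in replicate 2. For Itga2, the collagen-binding alpha chain of keratinocytes, the nearest lay 159 and 375 kb away, and for Itgb8 300 kb away in both replicates.

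No promoter region carried the name of a leukocyte or platelet gene in either replicate. Itga2b, the alpha chain of the platelet fibrinogen receptor, was the one with a region over it in both. It lay in a gene body region of 9.34 kb in replicate 1 (chromosome 11, 102456568 to 102465903) that held the whole 2.19 kb region of replicate 2, covering 56.3% and 13.2% of the gene. These regions ended 3.98 and 4.11 kb short of its start site. Its partner chain Itgb3 was named by a distal region of 1.77 kb in replicate 1. Itgb7, which lymphocytes that home to the gut carry, had a gene body region of 2.84 kb in replicate 2 only. Itgae, its partner on lymphocytes of epithelia, lay under a promoter region of 5.03 kb in replicate 2 that was named for Haspin, a kinase gene inside Itgae. The leukocyte genes Itgal, Itgam, Itgax and Itgb2, which encode the beta 2 integrin family, and Itga4 had no region. Those nearest to Itga4 lay 2081 and 1112 kb away.

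Nor did a promoter region carry the name of a gene of mesenchyme, muscle, nerve and endothelium, but gene body regions met in both replicates at Lamc3 and Itga11. Lamc3, a gamma chain of few basement membranes, held gene body regions of 7.32, 2.59 and 11.6 kb in replicate 1 and of 1.33 and 6.89 kb in replicate 2, which covered 34.8% and 13.3% of it. The 1.33 kb region lay wholly inside the 7.32 kb one, and 5.30 kb of the 6.89 kb region were shared. Itga11, a collagen receptor chain of fibroblasts, held a region of 4.07 kb in replicate 1 (chromosome 9, 62764239 to 62768307) and of 4.17 kb in replicate 2 (62764453 to 62768623), with 3.85 kb in common, 86.4 kb or more from its start site. Gene body regions in a single replicate lay in Itga5, the fibronectin receptor chain (3.65 kb, replicate 1), in Lama1, a laminin chain of the early embryo (3.08 and 1.84 kb, replicate 1), and in Itga10, a collagen receptor chain of cartilage (7.91 kb, replicate 2). Itga1 lay under a promoter region of 3.42 kb in replicate 1 that was named for Pelo, a gene inside it. Itga7, the laminin receptor chain of muscle, Itga8, Lama2 of muscle, Lama4 of vessels and Lamb2 had no region. Lama2, with 636 kb the longest of the 37 genes, had its nearest regions 1670 and 203 kb away.

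**Figure D3:**
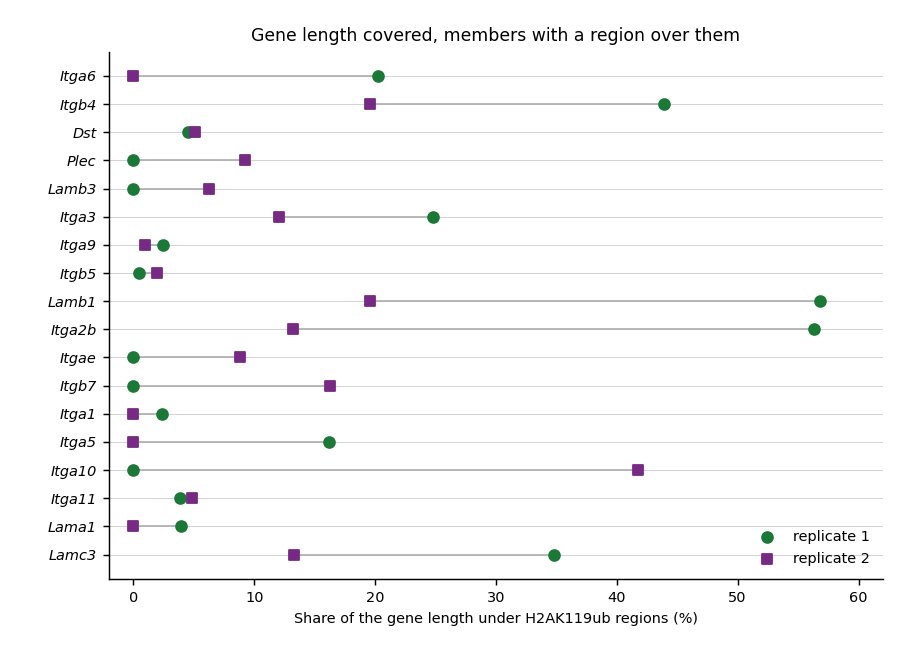
Share of gene length (%) under regions in replicate 1 (circles) and replicate 2 (squares) for the 18 genes with a region over them; a grey line joins the replicates of a gene. Lamb1 and Itga2b reach 56.8% and 56.3% in replicate 1 and 19.6% and 13.2% in replicate 2, and 9 genes sit at 0 in 1 replicate.

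Counted by position instead of by name, 9 of the 37 genes (24.3%, interval 11.8 to 41.2%) lay under a region in both replicates, against 13.3% of all protein-coding genes. In either replicate they were 18 (48.6%), against 22.9%. Regions of any class named 8 of 37 (21.6%) in both replicates, against 15.3%. A region lay within 1000 bp of either end of 4 of 37 genes (10.8%) in both replicates, against 9.93%. Besides the 3 named at their promoters, Itgb4 was counted, through the regions named for Galk1 at the end next to that gene. This rule does not tell the start of a gene from its other end. Within 5000 bp there were 6 of 37 (16.2%), with Itgav and Itga2b added, against 14.1%. The median length of the 37 genes was 62.5 kb, against 17.3 kb for all protein-coding genes, and the part of gene length in these shares was not tested. Per length, regions covered 3.82% of the 37 genes in replicate 1 and 2.31% in replicate 2, against 2.88% and 2.55% of all protein-coding genes. The set stood above the background in replicate 1 and below it in replicate 2. Coverage was 5.07% and 2.91% for the 17 basal genes in replicates 1 and 2, and 2.50% and 1.68% for the 20 genes of other tissues. A few genes carried much of it. In replicate 1, Lamb1 gave 36.6 kb, Itgb4 14.8 kb and Itga6 14.5 kb of the 99.9 kb covered in basal genes. Lamc3 gave 21.5 of the 46.9 kb covered in genes of other tissues. Of 17 basal genes 6 (35.3%, interval 14.2 to 61.7%) and of 20 other genes 3 (15.0%, interval 3.21 to 37.9%) lay under a region in both replicates. Those intervals overlap. In either replicate the counts were 9 of 17 (52.9%, interval 27.8 to 77.0%) and 9 of 20 (45.0%, interval 23.1 to 68.5%), and these intervals overlap too.

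**Figure D4:**
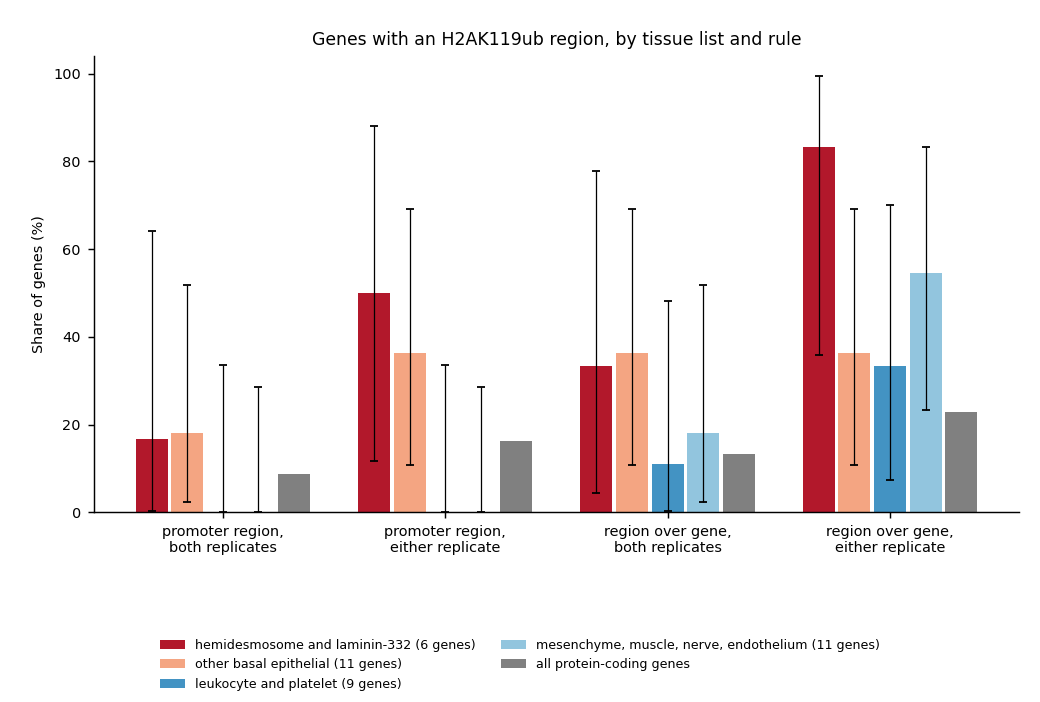
Share of genes (%) in each of the 4 lists, and of all protein-coding genes (grey), with a promoter region or a region over the gene, in both replicates or in either; bars start at 0 and lines are exact 95% binomial intervals. Promoter regions name 3 of 6 and 4 of 11 genes of the basal lists in either replicate and none of the 9 and 11 genes of the other lists, while regions over the gene occur in all 4 lists.

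Partners between replicates were then counted region by region. Of 27 regions in replicate 1, 12 (44.4%, interval 25.5 to 64.7%) overlapped a region of replicate 2, against 61.1% of all regions. Of 20 in replicate 2, 12 (60.0%, interval 36.1 to 80.9%) had a partner, against 61.2% of all. Promoter regions had a partner in 6 of 9 cases (66.7%) in each replicate, against 73.7% and 73.4% of all promoter regions in replicates 1 and 2. Gene body regions had one in 6 of 12 (50%) and 6 of 10 (60.0%), against 52.7% and 53.4% of all gene body regions. In the distal class 0 of 6 distal regions in replicate 1 and 0 of 1 in replicate 2 had one. Distal regions not named above were those of Lamb1 (2.68 kb), Itga5 (1.64 kb) and Lamc3 (1.49 kb) in replicate 1 and of Itga11 (2.55 kb) in replicate 2, between 10.4 and 29.4 kb from the gene. Over all distal regions the shares were 55.3% and 56.6%. The median width was 4068 bp in replicate 1 and 5494 bp in replicate 2, against 4864 and 4219 bp over all regions. The 19 genes with no region over them in either replicate had their nearest region at a median of 67.2 kb in replicate 1 and 69.1 kb in replicate 2.

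The promoter windows of the set were set against all 21045 windows of protein-coding genes. The letters CG, which read the same on both strands, occurred in all 28 windows of the 24 genes and in 95.5% of all windows. The median was 11 CG per window in the set and 13 in all windows. A region lay over 1 of the 28 windows in both replicates (3.57%), that of Dst, against 5.52% of all windows. That window held 31 CG, more than 85.9% of all windows did. The windows reached in replicate 1 only held 24 (Itga3), 20 (Itgb5) and 18 (Lamb1), and the Lamb3 window reached in replicate 2 only held 5. The 23 windows reached in neither ranged from 1, in Lama2, to 27, in Itgb1, with a median of 10. Over all genes the medians were 19 CG in windows reached in both replicates and 12 in those reached in neither. The CG-rich windows of Itgb1 (27 CG), Itgav and Lama5 (24 each) and Itga8 (23) had no region.

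**Figure D5:**
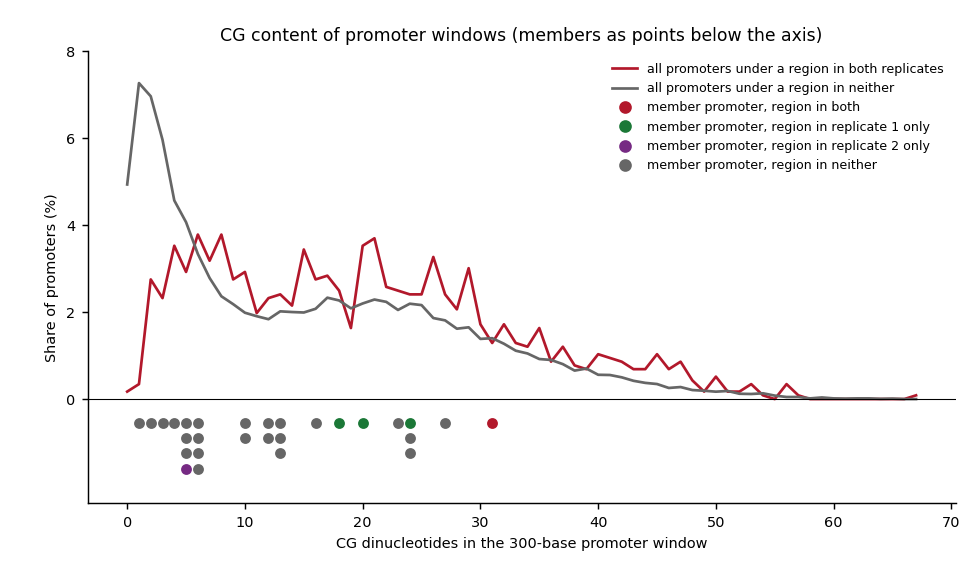
Number of CG dinucleotides per 300-base promoter window (horizontal axis) against the share of windows (%) for all protein-coding genes under a region in both replicates (red line) or in neither (grey line); points below the axis are the 28 windows of integrin, laminin and linker genes, coloured by the replicates with a region. The Dst window sits farthest right at 31 CG, and windows without a region spread from 1 to 27 CG.

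Other genes of matrix adhesion were counted by the same promoter rule. Of 37 such genes, 8 (21.6%, interval 9.83 to 38.2%) were named in both replicates, against 8.82% of all protein-coding genes. At the membrane, they included Cd151, the tetraspanin that partners laminin-binding integrins, with regions of up to 11.0 kb in replicate 1 and 18.2 kb in replicate 2. Among matrix proteins they were Nid1, a nidogen that links laminin to collagen (3.79 and 4.49 kb), the fibronectin gene Fn1 (7.43 and 2.97 kb) and the periostin gene Postn (1.92 and 5.44 kb). Inside the cell they were Ptk2, the focal adhesion kinase (14.6 and 12.4 kb), its substrate Bcar1 (3.48 and 7.03 kb), the parvin gene Parvb (10.8 and 6.37 kb) and the kindlin gene Fermt2 (3.03 and 2.26 kb). Col17a1, the collagen of the hemidesmosome, had no region within 74.7 kb in replicate 1 or 77.0 kb in replicate 2. Fermt1, the kindlin of epithelia, had none within 58.1 and 750 kb. Both were picked after their values were seen and do not set epithelial genes apart. Other unmarked genes also lay far from any region, such as Vcl (782 and 263 kb) and Lims1 (183 and 187 kb). Still others, such as Tln2 and Pxn, had regions over them in both replicates. Promoter regions were then required to exceed the median width of all regions of their replicate, whatever the class (4864 and 4219 bp). Dst, Itga3 and Itga9 were all still counted (3 of 37, 8.11%), against 6.31% of all protein-coding genes. Of the 8 other adhesion genes 3 were (Cd151, Ptk2 and Parvb). Among promoter regions alone, those of Itga9 were wider than only 45.9% in replicate 1 and 39.2% in replicate 2.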

How the data were processed

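ChIP-seq regions for H2AK119ub were analysed for 2 replicates of sorted tongue epithelium, each library made (per the labels' protocols) from 4 ng of DNA. The authors deposited 1 list of regions per replicate, giving first and last coordinates in mm10, a location class and gene names, per the file headers. The tools listed per the submitters' processing notes are SAMtools 0.1.19 and Bowtie2 2.3.3, with no role. Not given in the sources used here are the peak caller with its settings, any use of the input, the class distances and the coordinate base. The lists hold no height or score.

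A gene counted as marked when promoter regions named it in both replicates. Names were matched by symbol, then by a synonym of 1 gene, to RefSeq GRCm38.p6, and overlap was counted from 1 bp. Promoter windows came from RefSeq. No test was made. The overlap code was tested on simulated regions. Members and lists were chosen with earlier results of these data known. All 37 genes could be named, other adhesion genes when marked. Windows were printed for marked and hemidesmosome genes where a region touched them. Those of Lamb1, Itgb5 and Itgb1, and the unmarked genes Col17a1, Fermt1, Vcl, Lims1, Tln2 and Pxn, were chosen after their values were seen. Alternatives comprised either replicate, each replicate alone, any class, gene bounds, ends within 1000 or 5000 bp and wide regions. Python 3.11.15, numpy 2.4.6, pandas 2.3.3, scipy 1.17.1 and matplotlib 3.10.9 were used.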

Additional observations from a re-analysis of the deposited data

How the results depend on the processing

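Of 71 values under alternatives, 34 stayed within 1.5 times the count, or within the error, of the value reported, 37 moved and 0 reversed. Counts of marked genes are given in the order all 37 members (3 as reported), hemidesmosome and laminin-332 (1), other basal epithelial (2), leukocyte and platelet (0), mesenchyme, muscle, nerve and endothelium (0), other adhesion genes (8) and all protein-coding genes (1908). With promoter regions of either replicate they were 7, 3, 4, 0, 0, 13 and 3552. Without replicate 1 they were 5, 3, 2, 0, 0, 10 and 2690, and without replicate 2 they were 5, 1, 4, 0, 0, 11 and 2770. With regions of any class in both replicates they were 8, 1, 4, 1, 2, 15 and 3301. With regions over the gene bounds in both they were 9, 2, 4, 1, 2, 13 and 2875, and in either, an alternative chosen after seeing the data, 18, 5, 4, 3, 6, 20 and 4946. Within 1000 bp of a gene end they were 4, 2, 2, 0, 0, 8 and 2148, and within 5000 bp 6, 2, 3, 1, 0, 12 and 3055. With promoter regions wider than the median of all regions of their replicate they were 3, 1, 2, 0, 0, 3 and 1364. Looser rules hold more regions by construction. With an overlap of at least 50% of both regions, 25.9% and 35.0% of member regions in replicates 1 and 2 had a partner. Among promoter regions alone the median width of member regions was 8119 and 6346 bp. Without the widest 5% of regions it was 3858 and 5494 bp, and 46.2% and 60.0% had a partner. No paired analysis was possible because the replicates form 1 group and no test was made. Depth is unknown, so a missing region does not show that the mark is absent, and with 6 to 11 genes a list the intervals are wide.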
